A study of Mus musculus with 36 samples.

Results

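The comparison described here set induced regulatory T cells (iTreg) against non-pathogenic Th17 cells (Th17n) when both were cultured with DFMO. It took in every sample of these 2 groups under DFMO, which were 12 of the 36 samples of the study. They come from 6 of its 18 libraries, each sequenced in 2 runs that were summed. Naive CD4 T cells (CD44- CD62L+ CD25-) were sorted from spleens of 3 wild-type (WT) C57BL/6 mice and activated with plate-bound antibodies against CD3 and CD28. Both received TGF-beta 1 at 2 ng/ml, and Th17n cultures in addition IL-6, at 25 ng/ml. IL-6 was therefore the only agent by which the compared cultures differed. All 6 cultures held DFMO at 100 µM, were harvested at 68 h and were sorted for live cells only, with no selection for Foxp3 or IL-17. The same pair of lineages in vehicle, 3 libraries each from the same animals, served as the measure of what IL-6 did without DFMO. Each animal gave 1 library per group, so the spread is between animals.

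IL-6 binds the receptor chain Il6ra and signals through the shared chain gp130 (Il6st) and Jak kinases to the transcription factor STAT3. With TGF-beta, STAT3 drives naive CD4 T cells to the Th17 fate, marked by the cytokines IL-17A and IL-17F. TGF-beta without IL-6 induces Foxp3, the transcription factor that defines regulatory T cells. DFMO (difluoromethylornithine) blocks ornithine decarboxylase (Odc1), the enzyme that makes putrescine, from which the polyamines spermidine and spermine are built. The comparison asks which differences made by IL-6 were present when that synthesis was blocked.

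The 6 libraries held 8307633 to 12594398 estimated counts, and all 18 libraries 8307633 to 13986923. Levels are given as CPM (counts scaled to a library of fixed size), scaled between libraries with edgeR's TMM factors, in the order of animals 1, 2 and 3. Differences are log2 values of iTreg minus Th17n ± standard error (SE) with n = 3 animals per group, and a positive value means higher in iTreg. Genes were called where the adjusted p (Benjamini-Hochberg, over the 11526 genes tested) was below 0.05 by the quasi-likelihood F test of edgeR. Coordinates are on GRCm38. In bulk RNA, a lower level can come from fewer cells of a type or from less RNA per cell, and these cannot be told apart.

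Under DFMO, IL-6 still separated the lineages across a large share of the transcriptome. Of 11526 genes, 1344 (11.7%) were higher and 1504 (13.0%) lower in iTreg, against 2121 (18.4%) and 2180 (18.9%) in vehicle. These shares over all genes are the background for the counts of called genes in the lists below. The balance of directions depended on scaling, with 818 higher and 1779 lower under DFMO and 3200 and 1380 in vehicle on log2(TPM + 1), and 1231 and 1591 against 3184 and 1518 without scaling factors. The 3 libraries of each group did not overlap for 4224 genes (36.6%) under DFMO, of which 2709 were called. The smallest exact permutation p of 3 against 3 libraries is 0.1, so some genes separate in this way without a lineage difference. Of the 4301 vehicle calls, 1698 were called the same way under DFMO, which is 39.5% of the vehicle calls and 59.6% of the 2848 DFMO calls. The 2 contrasts share no library. The median absolute difference over all genes was 0.27 under DFMO and 0.35 in vehicle, on the log2 scale. Without animal 2, 1590 genes were called under DFMO.

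Large vehicle differences were called again under DFMO more often than vehicle calls as a whole, on both sides. Among genes higher in iTreg in vehicle, 35.9% of all 2121, 56.8% of the 632 with a log2 difference of at least 1, 67.2% of the 290 with at least 2 and 75.0% of the 184 with at least 3 were called higher under DFMO. Among genes lower in iTreg in vehicle, the share called lower under DFMO was 42.9% of all 2180, and 61.7% of 768, 61.5% of 340 and 63.9% of 180 genes at the same sizes. Larger differences pass the threshold more easily, so these shares do not tell whether DFMO affected large and small differences unequally.

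The change of a difference between vehicle and DFMO was tested gene by gene as DFMO minus vehicle. It was called for 1396 genes, 768 positive (6.66%) and 628 negative (5.45%), and for 1848 with the animal as a block. The 1474 genes called the same way in both contrasts, without a called change, had a median absolute difference of 0.93 in vehicle and 0.93 under DFMO. A missed call does not show that their differences were equal, since the median SE of the change was 0.24 among them. Another 147 genes were called in both with a smaller difference under DFMO (narrowed), and 77 with a larger one (widened). For 724 genes the vehicle difference was not called under DFMO and the change itself was called (lost). For 277 the difference was called under DFMO alone with a called change (gained), and 130 were called in opposite directions (turned). Of the rest, 2492 were called in 1 contrast without a called change, 41 for the change alone and 6164 in no test. Calls of the change were few without animal 1 (388) or animal 2 (277), so the size of these classes depends on having all 3 animals. The split between positive and negative changes depended on scaling, since 450 were positive and 1509 negative when no scaling factors were used, and 402 and 2161 on log2(TPM + 1). The median change of all genes moved from -0.04 to -0.21 and -0.25 in these fits.

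**Figure D1:**
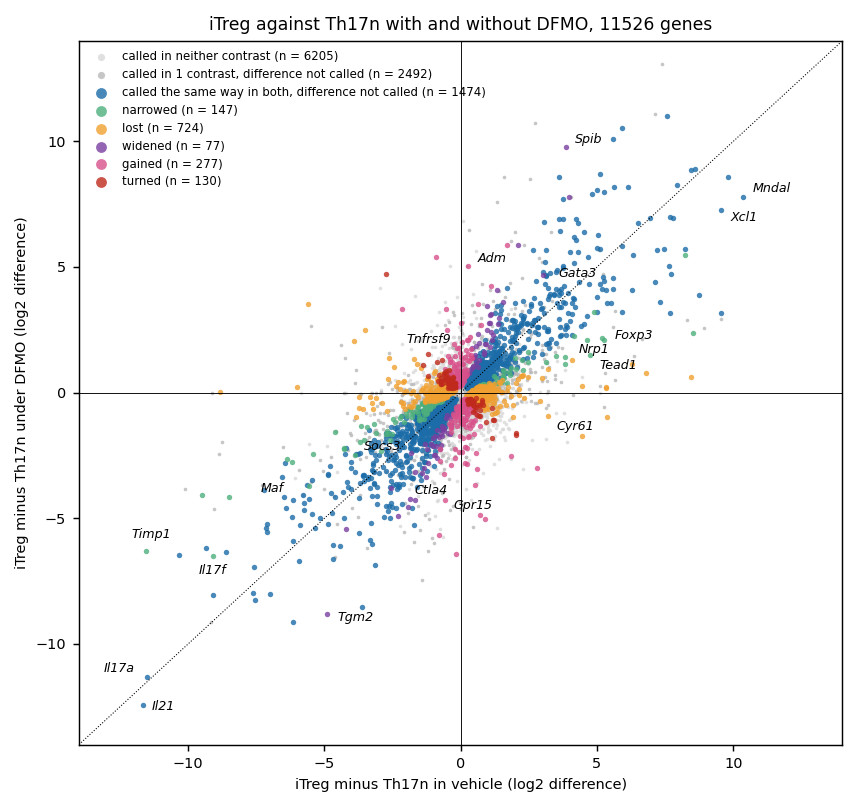
Log2 difference between iTreg and Th17n for each of 11526 genes, in vehicle on the horizontal axis and under DFMO on the vertical axis, coloured by the classes defined in the text; the dotted line marks equal differences. Blue genes (n = 1474) lie along the line, orange genes (lost, n = 724) along the horizontal axis and pink genes (gained, n = 277) along the vertical axis.

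Il6ra, the IL-6 receptor chain, was not called in either contrast (under DFMO -0.24 ± 0.18, adjusted p = 0.38). Il6st, which encodes gp130, stood at 28.2, 28.2 and 24.2 CPM in iTreg and 36.1, 42.5 and 42 CPM in Th17n under DFMO, so iTreg was lower in every animal (-0.58 ± 0.18, adjusted p = 0.022). In vehicle it was not called (0.26 ± 0.18), and the change was called (-0.84 ± 0.26, adjusted p = 0.037). Without animal 1, 2 or 3 the DFMO difference was -0.68, -0.56 or -0.48 and was called in none of these fits, nor was the change (-0.87, -0.94 and -0.72). Jak2, a kinase bound to gp130, was lower in iTreg with DFMO (-0.66 ± 0.11, adjusted p = 0.00014) and in vehicle (-0.66 ± 0.11). Stat3 itself was lower in iTreg in vehicle (-1.12 ± 0.092) and by less under DFMO, where iTreg held 339.9, 413 and 344 CPM and Th17n 428, 494 and 483 CPM (-0.36 ± 0.091, adjusted p = 0.0058). That narrowing was called (change 0.76 ± 0.13, adjusted p = 0.00075) beside vehicle levels of 295 to 389 CPM in iTreg, a range that overlaps that under DFMO, and 724 to 765 CPM in Th17n, which does not. Without animal 3 the DFMO difference of Stat3 was -0.29 and not called, and on log2(TPM + 1) the change was 0.46 and not called.

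Of 28 tested genes of the IL-6 receptor and JAK-STAT list, 9 were lower and 2 higher in iTreg under DFMO, against 15 and 4 in vehicle. Their median difference was -0.21 under DFMO, where that of all genes tested was -0.02. Il2rb, the shared beta chain of the IL-2 and IL-15 receptors, was lower in iTreg (-1.16 ± 0.087, adjusted p = 1.9e-09), with 312 to 355 CPM against 702 to 766 CPM. Il12rb1, a chain shared by the receptors of IL-12 and IL-23, was lower too (-1.87 ± 0.27, adjusted p = 0.00017). Without animal 3 only 5 members of the list were called lower.

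Socs3, the feedback inhibitor that STAT3 induces and that blocks gp130 signalling, is widely used as a readout of the pathway. Under DFMO it stood at 39.6, 48.9 and 35.9 CPM in iTreg and 250.4, 238 and 216 CPM in Th17n, and in vehicle at 33.5, 33.7 and 41.1 and 559, 521 and 503 CPM. The 2 lineages did not overlap in either condition, the iTreg ranges of the 2 conditions overlapped, and every Th17n library with DFMO lay below every one without it. The difference was -2.50 ± 0.11 under DFMO (adjusted p = 5.6e-13) and -3.87 ± 0.11 in vehicle, and the narrowing was called (change 1.37 ± 0.14, adjusted p = 5.7e-06) in all 13 alternatives. Of 24 tested STAT3 target genes, 21 were lower and 0 higher in iTreg under DFMO, and 22 lower and 0 higher in vehicle. The count under DFMO was 19 to 21 over the alternatives, and the medians were -2.39 under DFMO and -2.15 in vehicle. The 3 tested targets that were not called under DFMO were Pim1 (-0.31), Tnfaip3 (-0.08) and Mcl1 (0.16).

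Promoter sequence was examined for a STAT motif as a description, without a test. The motif searched was TTCNNNGAA, the core palindrome that STAT dimers bind. It is its own reverse complement, so a search of 1 strand covers both. Within 250 bases upstream of RefSeq starts (GRCm38.p6), it was found in 3 of 18 windows (16.7%) of the 17 targets that were lower in iTreg and had a window. The same share was 5.54% for all genes lower in iTreg, 7.28% for all genes higher in iTreg, 6.06% for all genes tested and 7.02% for all promoters of the table. The matches lay at Socs3 and, with 1 and 3 matches, at the 2 starts of Bcl6, a repressor induced by STAT3. A match describes the letters of a window and not a bound site. The list was made of known STAT3 targets and its windows were few, so no conclusion is drawn from its share. Stretches of 120 bases are printed for these windows, 5′ to 3′ on the gene's strand, with the motif in capitals.
Socs3, chr11:117969457-117969576, minus strand, motif starting 154 bases before the start: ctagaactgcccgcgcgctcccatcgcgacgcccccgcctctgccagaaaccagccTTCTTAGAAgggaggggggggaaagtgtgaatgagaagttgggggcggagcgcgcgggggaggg
Bcl6, chr16:23988907-23989026, minus strand, motif starting 118 bases before the start: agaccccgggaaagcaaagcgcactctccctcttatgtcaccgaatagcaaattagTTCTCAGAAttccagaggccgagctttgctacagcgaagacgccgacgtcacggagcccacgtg
Bcl6, chr16:23981348-23981467, minus strand, motifs starting 168, 122 and 88 bases before a second start: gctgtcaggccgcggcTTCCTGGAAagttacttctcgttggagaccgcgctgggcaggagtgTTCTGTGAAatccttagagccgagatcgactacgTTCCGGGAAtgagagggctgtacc

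Bcl6 was less firmly measured than Socs3. It stood at 10.7, 11.4 and 5.76 CPM in iTreg and 14.1, 15.5 and 14.3 CPM in Th17n under DFMO (-0.66 ± 0.23, adjusted p = 0.036). Leaving out animal 1, 2 or 3 gave -0.79, -0.78 and -0.42, and the call was lost each time.

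The transcription factors of the Th17 programme were lower in iTreg when polyamine synthesis was blocked. Of 17 tested, 14 were lower and 1 higher (Tox, 0.98; not called without animal 2 or animal 3), against 12 and 1 in vehicle, with medians of -1.33 and -1.24. Maf, a factor that activates Il10 and Il21, stood at 6.34, 4.07 and 1.05 CPM against 70.5, 66.6 and 74.3 CPM (-4.26 ± 0.46, adjusted p = 8.0e-06). Irf4, a factor induced by T cell receptor signalling, differed by -1.33 ± 0.085 under DFMO and -1.28 ± 0.085 in vehicle (change -0.05 ± 0.12). Hif1a, the oxygen-regulated factor, differed by -1.63 ± 0.13 (adjusted p = 3.0e-08), and Ahr, the aryl hydrocarbon receptor, by -2.48 ± 0.29 (adjusted p = 1.1e-06). Fosl2, an AP-1 subunit, stood at 5.59 to 11 CPM in iTreg and 63 to 89.96 CPM in Th17n (-3.09 ± 0.20, adjusted p = 4.0e-09).

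Batf, the AP-1 factor that opens Th17 loci together with Irf4, had a wider difference under DFMO. It stood at 17, 23.2 and 29.3 CPM in iTreg and 112, 104 and 116 CPM in Th17n under DFMO, and at 52.9, 48.7 and 47.4 and 111, 119 and 123 CPM in vehicle. The Th17n ranges of the 2 conditions overlapped, and every iTreg library with DFMO lay below every one without it. The difference was -2.25 ± 0.13 under DFMO (adjusted p = 6.2e-11) against -1.24 ± 0.12 in vehicle, and the change (-1.0 ± 0.18, adjusted p = 0.001) was called in all 13 alternatives. Ikzf3, a factor of the Ikaros family, was lower in iTreg under DFMO (-0.96 ± 0.16, adjusted p = 9.4e-05) and not called in vehicle (-0.38 ± 0.15; called, at -0.39, with the animal as a block), and its change missed the threshold (-0.58 ± 0.22, adjusted p = 0.088). That change was called without scaling factors (-0.75), on log2(TPM + 1) (-0.72) and in the 12 compared libraries alone (-0.60).

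The cytokine genes Il17a, Il21, Il22 and Il10 were almost silent in iTreg with DFMO as without it. Il17a (chr1:20730905-20734496) stood at 0, 0.083 and 0 CPM in iTreg and 83.9, 41.8 and 211 CPM in Th17n under DFMO. With 1 count in all iTreg libraries, the Th17n to iTreg ratio of counts was 3584, with a 95% interval of 643 to 141600 for counting error only. Th17n libraries spanned 41.8 to 211 CPM under DFMO and 166 to 251 CPM in vehicle, and animal 3 was the highest under DFMO. Il17f (chr1:20777146-20790617) kept a trace in iTreg, at 4.47, 14 and 2.71 CPM against 521, 548 and 886 CPM in Th17n (-6.49 ± 0.48, adjusted p = 5.8e-07). In vehicle iTreg held 0.644 to 1.83 CPM, the difference was -9.09 ± 0.58, and the change was at the edge of the threshold (2.61 ± 0.78, adjusted p = 0.048). That change was not called with the animal as a block (2.60), without animal 1 (2.79) or without animal 2 (1.22).

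Il21, the autocrine cytokine of Th17 cells, stood at 474, 339.6 and 419 CPM in Th17n with DFMO and 248, 226 and 248 CPM without it, and these ranges did not overlap. It was at 0, 0 and 0.175 CPM in iTreg under DFMO, which gives a ratio of 6397 (95% counting interval 1770 to 52820, 2 counts in iTreg). Il22 stood at 6.11, 2.56 and 64.4 CPM in Th17n, and animal 3 supplied most of it. Its ratio was 806 (95% counting interval 144 to 31870), and its call (adjusted p = 0.015) was lost without animal 1 or 3, where the fitted values were -9.28 and -8.37. Il10, an anti-inflammatory cytokine of non-pathogenic Th17 cells, stood at 21.1, 25.2 and 10.1 CPM in Th17n and 0, 0 and 0.175 CPM in iTreg under DFMO. The ratio was 294 (95% counting interval 81.1 to 2435), and in vehicle, with no count in iTreg, Th17n was at least 24.5-fold higher against a floor of 3 counts over the group. Il23r, the receptor chain that sustains Th17 cells, was low throughout, at 2.19, 1.5 and 1.27 CPM in Th17n and 0, 0 and 0.0873 CPM in iTreg.

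Il9, a cytokine that acts on mast cells, was expressed in both lineages. It stood at 580.2, 559 and 498 CPM in iTreg and 1915, 1552 and 1494 CPM in Th17n under DFMO, and at 35, 21.5 and 29.99 and 202, 185 and 184 CPM in vehicle. All DFMO libraries lay above all vehicle libraries of these lineages. The lineage difference was -1.60 ± 0.24 under DFMO (adjusted p = 0.00025) and -2.73 ± 0.26 in vehicle, and the change missed the threshold (1.13 ± 0.34, adjusted p = 0.051), which it passed with the animal as a block (1.16), in DESeq2 (1.14), in the 12 compared libraries alone (1.11) and in run 2 alone (1.06). Of 23 tested Th17 cytokines, receptors and surface genes, 17 were lower and 3 higher in iTreg under DFMO, against 16 and 4 in vehicle. In the 6 DFMO libraries fitted alone, 11 were lower. Ccr6, the chemokine receptor of Th17 cells, was higher in iTreg, at 141, 113 and 94.6 CPM against 57, 55.5 and 67.1 CPM (0.95 ± 0.18, adjusted p = 0.00075). Tnfsf8, which encodes the CD30 ligand, was higher too (3.52 ± 0.24, adjusted p = 8.7e-09). Ltb4r1, the leukotriene B4 receptor, stood at 14.2 to 19.5 CPM in Th17n and 0 to 0.621 CPM in iTreg (-6.17 ± 0.50, adjusted p = 1.4e-08).

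Timp1, an inhibitor of metalloproteinases that STAT3 induces, was among the genes whose difference narrowed most. It stood at 6.59, 10.5 and 2.62 CPM in iTreg and 595, 535 and 423 CPM in Th17n under DFMO, and at 0.43, 0.184 and 0.506 and 1365, 1097 and 1035 CPM in vehicle. DFMO libraries were thus higher than vehicle libraries in iTreg and lower in Th17n. The difference was -6.29 ± 0.40 (adjusted p = 1.1e-07) against -11.56 ± 0.56 in vehicle (change 5.27 ± 0.78, adjusted p = 0.0012), and the change was not called without animal 1 (5.35) or animal 2 (4.40). Il24, a cytokine of the IL-10 family, followed the same course, with a difference of -4.14 ± 0.35 under DFMO and -8.49 ± 0.43 in vehicle (change 4.36 ± 0.62, adjusted p = 0.00083, and 4.18, not called, without animal 2).

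Foxp3 (chrX:7573644-7595245) separated the lineages with DFMO, but by less than in vehicle. It stood at 483, 476 and 274 CPM in iTreg and 101, 115 and 76.3 CPM in Th17n under DFMO, and at 516, 397 and 393 and 11.1, 11.2 and 11.8 CPM in vehicle. The groups did not overlap in either condition, the iTreg levels of both conditions did, and every Th17n library with DFMO lay above every one without it. The difference was 2.08 ± 0.30 (adjusted p = 0.00018) under DFMO and 5.26 ± 0.36 in vehicle, and the change was -3.18 ± 0.44 (adjusted p = 0.00075), which was not called without animal 1 (-3.13). Nrp1, a surface receptor of regulatory T cells, stood at 359.9, 362 and 298 CPM in iTreg against 72.7, 88.3 and 54.8 CPM in Th17n under DFMO and 187, 147 and 108 against 10.4, 6.78 and 7.97 CPM in vehicle. In both lineages every DFMO library lay above every vehicle library. Its difference was 2.24 ± 0.37 (adjusted p = 0.00057) and 4.14 ± 0.43, with a change of -1.90 ± 0.55 (adjusted p = 0.04) that was not called without animal 1, 2 or 3 (-1.90, -1.66 and -2.12). Tead1, a factor of the Hippo pathway, stood at 25.9 to 33.1 CPM in iTreg under DFMO and 25.5 to 32.1 CPM in vehicle, and at 7.61 to 13.5 and 0.263 to 2.19 CPM in Th17n. The difference was 1.51 ± 0.37 (adjusted p = 0.0056) against 4.75 ± 0.48 in vehicle, with a change of -3.23 ± 0.61. Without animal 1 neither the DFMO difference of Tead1 (1.66) nor its change (-2.90) was called.

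**Figure D2:**
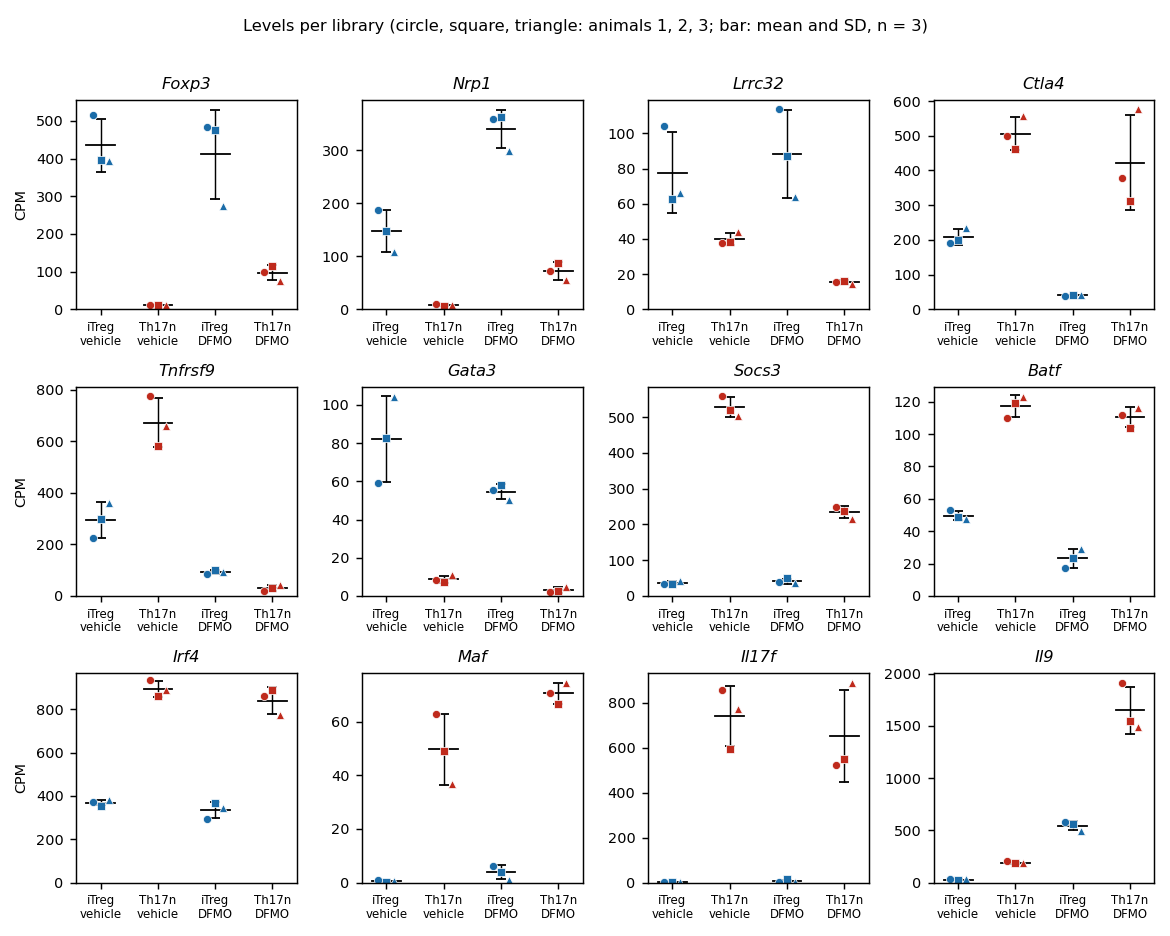
CPM of 12 genes in each library of iTreg (blue) and Th17n (red) in vehicle and under DFMO, with the mean and SD of 3 animals; the vertical axes are linear and start at 0. Foxp3 in Th17n libraries lies at 11.1 to 11.8 CPM in vehicle and 76.3 to 115 CPM under DFMO, while Ctla4 in iTreg libraries lies at 39.0 to 42.0 CPM under DFMO.

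The Treg signature as a whole differed in both directions. Of 27 tested members of the Treg signature, 12 were higher and 6 lower in iTreg under DFMO, against 10 and 9 in vehicle, with medians of 0.48 and 0.07. Ctla4 (chr1:60887000-60915832), the inhibitory receptor by which regulatory cells restrain costimulation, was lower in iTreg than in Th17n. It stood at 39, 42 and 41.3 CPM in iTreg and 378, 313 and 576 CPM in Th17n under DFMO, and at 189.6, 199 and 235 and 499.8, 461 and 558 CPM in vehicle. The iTreg libraries with DFMO lay below all others, and the difference widened from -1.28 ± 0.17 to -3.37 ± 0.18 (change -2.09 ± 0.24, adjusted p = 7.0e-05) in all 13 alternatives. Il2ra, the high-affinity IL-2 receptor chain, was lower in iTreg under DFMO (-0.65 ± 0.10, adjusted p = 6.1e-05) and in vehicle (-0.69 ± 0.10). Lrrc32, which encodes GARP, the surface anchor of latent TGF-beta, was higher in iTreg at 114, 87.3 and 64.1 against 15.8, 16.3 and 14.5 CPM. Its difference widened from 0.96 ± 0.19 to 2.50 ± 0.20 (change 1.54 ± 0.27, adjusted p = 0.0011), a change not called without animal 2 (1.47).

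Swap70, Ikzf4 and Itgae were called under DFMO and not in vehicle, and their changes were called. Swap70, which binds actin and phosphoinositides, stood at 69.95, 90.7 and 131 CPM in iTreg and 21.9, 19.8 and 26.5 CPM in Th17n (2.10 ± 0.23, adjusted p = 3.3e-06), against 0.22 ± 0.22 in vehicle (change 1.88 ± 0.31, adjusted p = 0.0012). Ikzf4, which encodes the Foxp3 partner Eos, was higher in iTreg by 0.76 ± 0.12 (adjusted p = 5.0e-05; change 0.88 ± 0.17, and 0.84, not called, without animal 1). Itgae, which encodes the integrin CD103, was low, at 4.22, 4.07 and 1.57 against 0.576, 0.618 and 0.544 CPM (2.47 ± 0.55, adjusted p = 0.0018), and that call was lost without animal 1 (2.27) or animal 2 (2.35), as was that of its change (2.99 ± 0.78 with all animals, 2.77 and 2.78 without these). Ikzf2, which encodes Helios, was higher in iTreg in both contrasts (1.79 ± 0.34 under DFMO, adjusted p = 0.00098, and 2.28 ± 0.36 in vehicle). Gpr15, a receptor that guides T cells to the colon, was lower in iTreg under DFMO, at 1.12, 0.664 and 0.0873 against 12.8, 15 and 7.61 CPM (-4.29 ± 0.68, adjusted p = 8.8e-05), and not called in vehicle (-0.59 ± 0.65). The change of Gpr15 was -3.70 ± 0.93 (adjusted p = 0.014) and was not called without animal 1 (-3.79) or animal 2 (-3.74).

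Both cultures received TGF-beta, and its pathway genes differed in each direction. Of 26 tested, 6 were higher and 7 lower in iTreg under DFMO, against 3 and 9 in vehicle. Without animal 1, 3 were higher, and without animal 2, 4. The shares over all genes tested were 11.7% higher and 13.0% lower under DFMO. Smad3, a transducer of the receptor signal, stood at 12.1, 14.5 and 10.7 CPM in iTreg and 50.9, 47.9 and 59.3 CPM in Th17n (-2.08 ± 0.15, adjusted p = 1.2e-09), with -2.28 ± 0.15 in vehicle. Id2, an inhibitor of E proteins, differed by -2.06 ± 0.16 (adjusted p = 4.8e-09), and the co-receptor Tgfbr3 by -1.13 ± 0.18 (adjusted p = 6.7e-05). Tgfb3, the TGF-beta isoform of Th17 cells, was close to 0 in Th17n with DFMO, at 0.231, 0.353 and 0.815 CPM against 54.6, 33.6 and 35.1 CPM in vehicle. With 1 count in iTreg, the Th17n to iTreg ratio under DFMO was 15.3 (95% counting interval 2.35 to 642), and its call (adjusted p = 0.015) was lost without animal 2 or 3, with fitted values of -3.14 and -4.62.

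Among co-inhibitory and costimulatory receptors, 7 of 20 were higher and 7 lower in iTreg under DFMO, against 6 and 9 in vehicle. Tnfrsf9 (chr4:150914562-150946102), which encodes the costimulatory receptor 4-1BB, turned. It stood at 83.7, 99.6 and 91.2 CPM in iTreg and 19.6, 30.2 and 43.2 CPM in Th17n under DFMO, but at 224, 298 and 362 and 775, 584 and 659 CPM in vehicle. Every DFMO library lay below every vehicle library, and the Th17n libraries were the highest in vehicle and the lowest under DFMO. The difference was 1.55 ± 0.24 (adjusted p = 0.00035) and -1.19 ± 0.23 (adjusted p = 0.0011), with a change of 2.74 ± 0.34 (adjusted p = 0.00026) that was not called without animal 2 (2.74). Cd274, which encodes the inhibitory ligand PD-L1, was higher in iTreg at 90.9, 108 and 82.8 against 16.9, 23.7 and 26 CPM (2.08 ± 0.14, adjusted p = 3.4e-10), and Cd28, the main costimulatory receptor, was lower at 68.3, 56.3 and 72.4 against 184, 187 and 178 CPM (-1.48 ± 0.11, adjusted p = 1.5e-09). Both had differed the same way but by less in vehicle (1.15 ± 0.14 and -0.86 ± 0.11). Both differences widened, with called changes (0.92 ± 0.19, adjusted p = 0.0031, and -0.62 ± 0.15, adjusted p = 0.0091).

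The factors of other helper fates included Gata3, the regulator of Th2 cells, which was higher in iTreg. It stood at 55.5, 58.1 and 50.4 CPM in iTreg and 1.96, 2.38 and 4.62 CPM in Th17n under DFMO (4.17 ± 0.27, adjusted p = 1.8e-09), and the vehicle difference was 3.21 ± 0.25. The change of Gata3 missed the threshold (0.96 ± 0.36, adjusted p = 0.089) and passed it with the animal as a block (1.02), in DESeq2 (0.98), in run 2 alone (1.48) and without animal 3 (1.5). Tbx21, the Th1 regulator T-bet, was not called under DFMO (-0.49 ± 0.46, adjusted p = 0.49), but was called lower in iTreg without animal 3 (-1.08). Of 17 naive and memory genes, 7 were higher and 2 lower, against 5 and 6 in vehicle, with 4 higher under DFMO without animal 1 or animal 3 and 3 on log2(TPM + 1). Tcf7, a factor of naive and memory T cells, was higher in iTreg (0.93 ± 0.12, adjusted p = 4.4e-06). Satb1, a chromatin organiser of T cells, was lower, at 34, 27.3 and 36.6 against 149, 158 and 182 CPM (-2.32 ± 0.12, adjusted p = 2.2e-11). The difference of Satb1 was -2.92 ± 0.12 in vehicle, and the narrowing was called (change 0.60 ± 0.16, adjusted p = 0.02). Of 20 tested genes of the Th1, Th2 and follicular helper list, 6 were higher and 5 lower in iTreg under DFMO, against 7 and 7 in vehicle; 3 were lower under DFMO without animal 2. Il4ra, the IL-4 receptor chain, was lower (-0.97 ± 0.095, adjusted p = 1.1e-07), and Cxcr3, a Th1 chemokine receptor, was higher (1.84 ± 0.22, adjusted p = 1.4e-06). In vehicle Il4ra differed by -1.52 ± 0.096, and its narrowing was called (change 0.55 ± 0.13, adjusted p = 0.009). Cxcr3 differed by 0.575 ± 0.196 in vehicle, and its widening was called (change 1.27 ± 0.29, adjusted p = 0.0069).

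Targets of IL-2 and STAT5, the axis that sustains regulatory T cells, differed in both directions. Over all genes tested, 11.7% were higher and 13.0% lower in iTreg under DFMO. Of the 20 list members tested, 4 were higher and 6 lower, with a median difference of -0.14, against 5 and 11 in vehicle. The change was called positive for 7 and negative for 1, but without scaling factors 3 were positive and 4 negative, and 1 was positive without animal 1 or animal 2. Ccnd3, a G1 cyclin, was lower in iTreg under DFMO (-0.47 ± 0.072, adjusted p = 4.2e-05) and in vehicle (-0.47 ± 0.072). Of 13 cytotoxic granule genes, 4 were higher and 4 lower in iTreg, against 7 and 3 in vehicle, with 2 lower when any 1 animal was left out.

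Of 26 tested chemokine receptor and homing genes, 10 were higher and 1 (Gpr15) lower in iTreg under DFMO, against 7 and 6 in vehicle. Without animal 1 or animal 2, 6 were higher. Selplg, which encodes the selectin ligand PSGL-1, stood at 677, 689 and 643 CPM in iTreg and 356, 376 and 375 CPM in Th17n (0.86 ± 0.076, adjusted p = 2.5e-08). It was not called in vehicle (-0.12 ± 0.075), and the change was called in all 13 alternatives (0.98 ± 0.11, adjusted p = 6.7e-06). Itga4, the alpha 4 integrin chain, was higher in iTreg in both contrasts (2.15 ± 0.18 and 2.47 ± 0.18). Cxcr5, the receptor that brings T cells to B cell follicles, lost its vehicle difference of -2.37 ± 0.28, with 9.94, 12.7 and 6.99 CPM in iTreg and 10.3, 8.39 and 6.43 CPM in Th17n under DFMO (0.25 ± 0.27; change 2.61 ± 0.39, adjusted p = 0.00023).

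Early response genes of the T cell receptor differed more towards Th17n under DFMO than in vehicle. Of 21 tested, 7 were lower and 4 higher under DFMO, against 1 and 8 in vehicle, and the medians were -0.38 and 0.39. The change was called negative for 6 and positive for 0, with 2 negative without animal 1 or without animal 2, and 11 on log2(TPM + 1). Nr4a2, an orphan nuclear receptor, stood at 4.1, 4.9 and 4.1 CPM in iTreg and 19.1, 12.3 and 48.3 CPM in Th17n (-2.60 ± 0.42, adjusted p = 0.00038), and the 3 Th17n libraries differed widely. Fos, an AP-1 subunit, stood at 3.11, 0.913 and 2.1 against 9.34, 7.68 and 9.97 CPM (-2.19 ± 0.42, adjusted p = 0.00061), and Tnf, the inflammatory cytokine, at 165, 193 and 179 against 292, 252 and 300.1 CPM (-0.65 ± 0.096, adjusted p = 2.5e-05). Junb, another AP-1 subunit, was lower in iTreg in both contrasts (-0.65 ± 0.083 and -0.69 ± 0.083), and Irf8, an interferon regulatory factor, was higher in both (1.20 ± 0.19 and 0.79 ± 0.19). The changes of Nr4a2 and Fos were -2.41 ± 0.57 and -2.41 ± 0.56, and without animal 2 they were -2.93 and -2.18 and not called. That of Nr4a2 was -2.73 and not called without animal 1, and -1.28 without animal 3. The vehicle difference of Irf8 was 0.86 and not called without animal 2.

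Transcripts of glycolysis, the breakdown of glucose to lactate that Th17 cells rely on, were lower in iTreg almost throughout. Of 22 tested genes, 20 were lower and 0 higher under DFMO, against 14 and 0 in vehicle, with medians of -0.85 and -0.66. Without animal 2, 11 were called lower under DFMO. The change was called for 1 gene of the list, and on log2(TPM + 1) for 11, all negative. Aldoa, which encodes aldolase, stood at 769, 927 and 1287 CPM in iTreg and 1945, 2148 and 2233 CPM in Th17n (-1.08 ± 0.12, adjusted p = 2.9e-06). Pgk1, phosphoglycerate kinase, stood at 1016, 1206 and 1597 against 2050, 2215 and 2435 CPM (-0.81 ± 0.11, adjusted p = 1.1e-05), and the hexokinase Hk1 and the phosphofructokinase Pfkp differed by -0.96 ± 0.093 and -1.37 ± 0.13. In all of these, iTreg libraries lay below all Th17n libraries.

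Most tested genes of the hypoxia response list, which holds targets of HIF-1, differed the same way. Of 21 tested, 15 were lower and 0 higher in iTreg under DFMO, against 14 and 0 in vehicle, and the median was -0.99 in both. Some members overlap the glycolysis list. P4ha2, a collagen prolyl hydroxylase, stood at 0.497, 0.249 and 1.22 CPM in iTreg and 16.7, 12.5 and 30.9 CPM in Th17n, and its difference widened from -2.29 ± 0.25 to -4.89 ± 0.39 (change -2.61 ± 0.50, adjusted p = 0.0031; -2.66, not called, without animal 1). Plin2, a lipid droplet protein, stood at 5.09, 3.4 and 6.02 against 32.3, 23.6 and 45.6 CPM and widened from -1.21 ± 0.21 to -2.81 ± 0.25 (change -1.60 ± 0.32, adjusted p = 0.004) in all 13 alternatives. Ndrg1, a stress gene, differed by -3.34 ± 0.32 (adjusted p = 4.3e-06).

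Genes of the unfolded protein response, which matches folding capacity of the endoplasmic reticulum to secretion, differed more with DFMO than without. Of 19 tested, 10 were lower and 0 higher in iTreg under DFMO, against 2 lower and 1 higher in vehicle, with medians of -0.50 and -0.03. Hspa5, which encodes the chaperone BiP, stood at 582, 664 and 631 CPM in iTreg and 1028, 998 and 988 CPM in Th17n (-0.68 ± 0.081, adjusted p = 1.6e-06), and at 671 to 866 and 751 to 860.2 CPM in vehicle, where the groups overlapped. The chaperone Hsp90b1, also known as endoplasmin, stood at 512, 546 and 544 against 919, 805 and 835 CPM (-0.68 ± 0.065, adjusted p = 9.0e-08), and the secreted factor Manf at 85.5, 80.6 and 98.8 against 154, 134 and 140.3 CPM (-0.69 ± 0.092, adjusted p = 6.6e-06). The changes of these 3 genes were -0.60 ± 0.11, -0.52 ± 0.091 and -0.75 ± 0.13 and were called in all 13 alternatives. Over the list the change was called negative for 7 and positive for 0, with 3 negative without animal 1 or without animal 2. Without animal 2, 4 members of the list were lower under DFMO, and on log2(TPM + 1) 14.

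Transcripts of respiration showed smaller differences. Of 26 tested genes of the respiratory chain and the TCA cycle, 6 were higher and 1 lower in iTreg under DFMO, against 2 and 4 in vehicle. On log2(TPM + 1) there were 2 higher and 3 lower, and without animal 2, 2 and 0, and the list as a whole therefore had no direction common to these fits. Fh1, fumarate hydratase, was higher in iTreg with DFMO (0.54 ± 0.084, adjusted p = 4.9e-05) and in vehicle (0.54 ± 0.084). Of 18 fatty acid oxidation genes, 5 were higher and 4 lower under DFMO, against 1 and 5 in vehicle, and on log2(TPM + 1) 2 and 4. Etfb, a subunit of the electron transfer flavoprotein, was higher in iTreg (0.63 ± 0.088, adjusted p = 1.3e-05), while Acadm, the medium-chain acyl-CoA dehydrogenase, was lower (-0.50 ± 0.11, adjusted p = 0.0016).

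Genes of the amino acid response, by which the factor ATF4 raises amino acid synthesis and transport, differed in both directions. Under DFMO, 11.7% of all genes tested were higher in iTreg and 13.0% lower. Of the 29 list members tested, 8 were higher and 6 lower under DFMO, against 6 and 5 in vehicle. The higher ones included Nupr1, a stress-induced chromatin protein (1.39 ± 0.18, adjusted p = 7.0e-06). Phgdh, the entry enzyme of serine synthesis, stood at 1467, 1690 and 1495 CPM in iTreg and 650.2, 729 and 606 CPM in Th17n (1.23 ± 0.087, adjusted p = 9.1e-10). The serine enzymes Psat1 (0.31) and Psph (0.28) and the mitochondrial folate enzyme Shmt2 (0.26) were higher by less, and were picked after their values were seen. The lower ones included the stress factors Atf3 (-2.84 ± 0.42) and Ddit3 (-1.35 ± 0.19), with Atf3 at 1.86, 4.9 and 8.91 CPM in iTreg and 32.6, 41.5 and 41.9 CPM in Th17n. Atf4 itself and its classic target Asns were not called (0.01 and 0.00). Without animal 3, 2 members were higher, without animal 2, 4, and on log2(TPM + 1), 3, and which members these were is not given here.

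Cholesterol synthesis genes leaned to opposite sides in the 2 conditions. Of 22 tested, 1 was higher and 4 lower in iTreg under DFMO, against 7 higher and 0 lower in vehicle, with medians of -0.32 and 0.20. The count under DFMO turned on single animals, with 1, 0 and 12 lower without animal 1, 2 or 3, and the change was called negative for 4 genes with all animals and for 0, 0 and 10 without each.

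Genes of DNA replication and ribosome making were higher in iTreg in vehicle and mostly not called under DFMO. Of 30 tested S phase genes, 5 were higher and 1 lower in iTreg under DFMO, against 21 and 0 in vehicle, and the change was called negative for 11. Of 27 ribosome biogenesis genes, 2 were higher and 1 lower under DFMO, against 18 and 2, and the change was called negative for 7 and positive for 1. The medians fell from 0.42 to 0.09 and from 0.46 to 0.04. Without animal 1, the change was called negative for 3 and 3 genes of these lists, and without animal 2 for 3 and 4, while log2(TPM + 1) gave 21 and 20. Cdc6, a loader of the replicative helicase, turned, from 0.77 ± 0.10 in vehicle to -0.38 ± 0.099 under DFMO, with 78.5, 103 and 91.2 CPM in iTreg and 111, 127 and 116 CPM in Th17n. Its change (-1.15 ± 0.14, adjusted p = 2.6e-05) was called in all 13 alternatives, while its DFMO difference was not called without animal 1 (-0.32) or animal 3 (-0.40). Tyms, thymidylate synthase, was higher in iTreg in both contrasts (0.67 ± 0.11 and 1.23 ± 0.11), and the narrowing was called (change -0.55 ± 0.155, adjusted p = 0.023). Of 30 genes of G2 and M phase, 0 were higher and 1 (Dlgap5, -0.34) lower under DFMO, against 6 and 1 in vehicle. Dlgap5 was not called without animal 2 (-0.25) or animal 3 (-0.37).

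**Figure D3:**
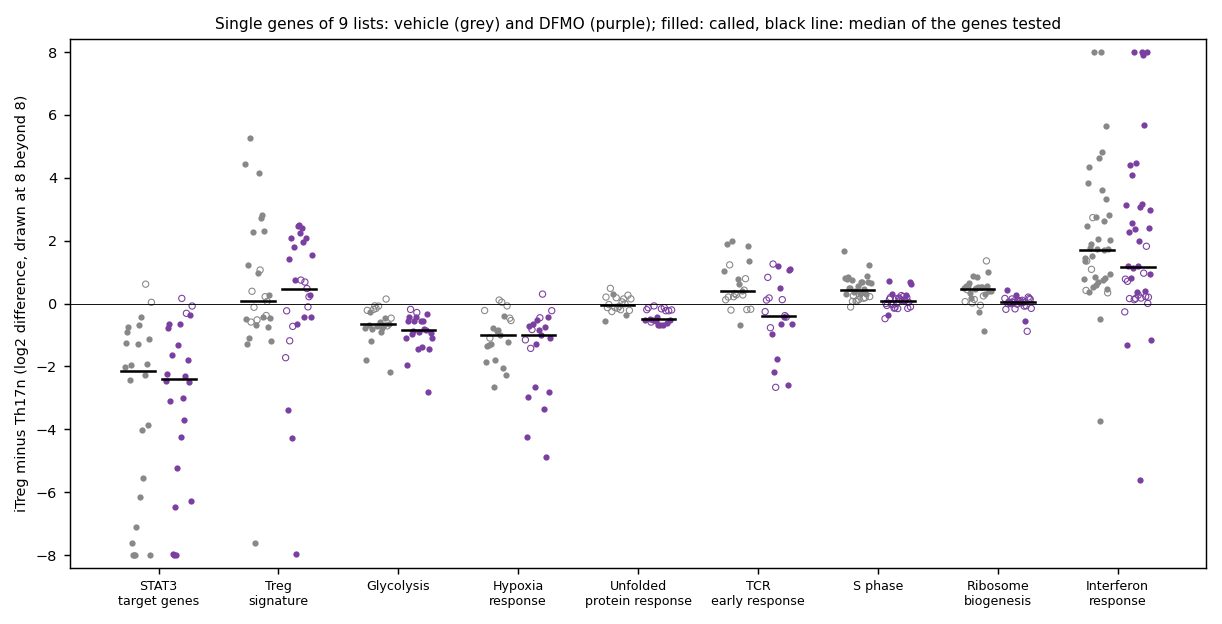
Log2 difference between iTreg and Th17n of each tested gene in 9 lists, in vehicle (grey) and under DFMO (purple); filled points are called, open points are not, black lines are medians, and values beyond 8 are drawn at 8. STAT3 targets keep medians of -2.15 and -2.39, while the median of the unfolded protein response moves from -0.03 to -0.50 and that of S phase from 0.42 to 0.09.

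Interferon response genes were higher in iTreg in both conditions. Of 40 tested, 24 were higher and 3 lower under DFMO, against 33 and 2 in vehicle, with medians of 1.16 and 1.71. The count under DFMO varied with the animals, and 8 were called higher without animal 1, 7 without animal 2 and 24 without animal 3. Ifih1, the RNA sensor MDA5, stood at 17.9, 19.8 and 12.5 CPM in iTreg and 1.27, 2.38 and 4.53 CPM in Th17n (2.57 ± 0.31, adjusted p = 6.3e-06), and Trim30a, an interferon-induced regulator, at 64.4, 45.7 and 31.3 against 5.42, 10.9 and 9.88 CPM (2.40 ± 0.27, adjusted p = 1.2e-05). Iigp1, an immunity-related GTPase, narrowed from 8.5 ± 0.79 to 2.38 ± 0.54, with 10.3, 20.4 and 11.6 CPM in iTreg and 2.65, 4.5 and 0.997 CPM in Th17n under DFMO and 39.5 to 90.7 and 0.0876 to 0.244 CPM in vehicle. Its DFMO difference (2.54) and its change (-6.16, against -6.12 ± 1.07 with all animals) were not called without animal 1. Zbp1, a sensor of Z-form nucleic acids, turned, at 13.4, 15.3 and 9.26 CPM in iTreg and 24.8, 23.9 and 36.1 CPM in Th17n under DFMO (-1.16 ± 0.19, adjusted p = 7.6e-05) against 0.94 ± 0.18 in vehicle, and the difference was -0.76, still called, without animal 3. Ly6a, which encodes Sca-1, was lower in iTreg (-5.60 ± 0.66, adjusted p = 3.9e-05).

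MHC class I and antigen processing genes were higher in iTreg too. Of 17 tested, 12 were higher and 0 lower under DFMO, against 14 and 0 in vehicle, with medians of 0.47 and 0.57. Psmb8, an immunoproteasome subunit, stood at 771, 772 and 720.1 CPM in iTreg and 448, 454 and 445 CPM in Th17n (0.75 ± 0.064, adjusted p = 1.7e-08), and Psme1, a proteasome activator subunit, at 344, 340.2 and 367 against 172, 140.4 and 157 CPM (1.16 ± 0.08, adjusted p = 6.6e-10). The difference of Psme1 was 0.546 ± 0.079 in vehicle, and its widening was called (change 0.62 ± 0.11, adjusted p = 0.0012). On log2(TPM + 1), 8 members of the list were higher and 1 was lower.

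**Figure D4:**
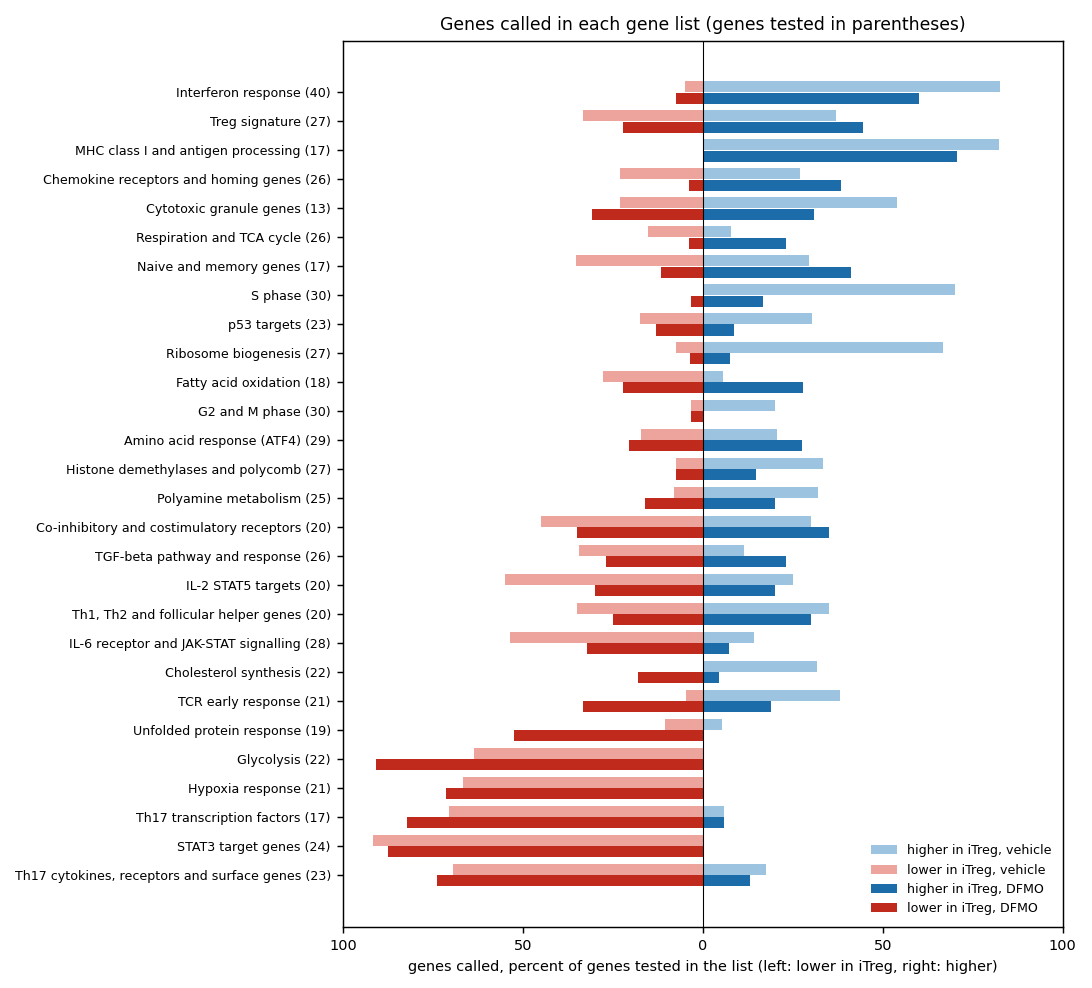
Share of tested genes of 28 lists that were called higher (blue, right) or lower (red, left) in iTreg than in Th17n, in vehicle (light) and under DFMO (dark), ordered by the median difference under DFMO; the number tested stands in parentheses. Th17, STAT3, hypoxia and glycolysis lists lie to the left in both conditions, with 20 of 22 glycolysis genes lower under DFMO, and interferon genes to the right, with 24 of 40 higher. The shares over all genes tested are not drawn (under DFMO 11.7% higher and 13.0% lower, in vehicle 18.4% and 18.9%).

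Single genes of the polyamine pathway, the target of DFMO, were called between the lineages, in both directions. Odc1, the enzyme DFMO inhibits, stood at 84, 112 and 133 CPM in iTreg and 184, 184 and 207 CPM in Th17n under DFMO, and at 151, 165 and 172 and 163, 173 and 165 CPM in vehicle. It was lower in iTreg with DFMO (-0.80 ± 0.14, adjusted p = 0.0002) and not called in vehicle (-0.04 ± 0.14); the change (-0.77 ± 0.19, adjusted p = 0.013) was not called without animal 2 (-0.84). DFMO acts on the enzyme, so the transcript does not check the label. Azin1, the antizyme inhibitor that protects Odc1, turned, at 175, 191 and 182 CPM in iTreg and 239.6, 238 and 246 CPM in Th17n under DFMO (-0.40 ± 0.097, adjusted p = 0.0038) against 0.40 ± 0.099 in vehicle (change -0.80 ± 0.14, adjusted p = 0.00083). The vehicle difference of Azin1 was 0.27 and not called without animal 1. Smox, spermine oxidase, was lower in iTreg in both contrasts, at 8.95, 5.31 and 8.29 against 38.8, 30.7 and 56.4 CPM under DFMO (-2.50 ± 0.26, adjusted p = 5.8e-06). Amd1, which makes the aminopropyl donor and has near-identical copies that could share reads, was higher in iTreg (0.46 ± 0.082, adjusted p = 0.00024). Srm, spermidine synthase (-0.54 ± 0.62), Sat1, the acetylating enzyme (-0.36 ± 1.36), and Oaz2, an antizyme (-0.40 ± 0.18), were not called. Oaz2 was called without animal 1 (-0.73), and Sat1 was low in animal 2 of every group (216, 24.7 and 262 CPM in iTreg and 275, 34.1 and 335 CPM in Th17n). Of 25 tested members, 5 were higher and 4 lower under DFMO, against 8 and 2 in vehicle. The median difference of the list under DFMO was -0.06, and over all genes tested 11.7% were higher and 13.0% lower.

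Ezh2 and Kdm6b, which write and erase the repressive mark on lysine 27 of histone H3, were not called under DFMO (-0.14 ± 0.14, adjusted p = 0.51, and -0.04 ± 0.13, adjusted p = 0.86). In vehicle Ezh2 was higher in iTreg (0.54 ± 0.14) and its change was called (-0.68 ± 0.20, adjusted p = 0.028), but not without animal 1 (-0.48) or animal 2 (-0.66). Without animal 1 the vehicle difference of Ezh2 was 0.50 and not called, and without animal 3 the gene was lower in iTreg under DFMO (-0.46). Of 27 histone demethylase and polycomb genes, 4 were higher and 2 lower under DFMO, against 9 and 2 in vehicle. Of 23 p53 targets, 2 were higher and 3 lower, against 7 and 4 in vehicle. Over all genes tested, 11.7% were higher and 13.0% lower under DFMO, and 18.4% and 18.9% in vehicle.

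The largest differences under DFMO included genes outside the lists. Among the genes given here and in the next paragraph, Nkg7 and Srgn belong to the cytotoxic granule list and Anxa2 to the hypoxia list. Ccl22, a chemokine that attracts Ccr4-bearing T cells, stood at 124, 94 and 91.2 CPM in iTreg and at 0 in every Th17n library, which makes it at least 1041-fold higher in iTreg against a floor of 3 counts over the group. In vehicle iTreg held 0.861, 3.4 and 1.69 CPM and Th17n 0 (at least 19.5-fold higher), and that difference was not called (adjusted p = 0.076). The change of Ccl22 was not called either. With no count in Th17n in either condition, the floors do not tell whether the lineage difference changed. Spib, an Ets-family transcription factor, stood at 101, 98.8 and 86.6 CPM in iTreg and 0.115, 0.177 and 0 CPM in Th17n under DFMO, a ratio of 982 (95% counting interval 336 to 4764), against 5.7, 10.4 and 8.26 CPM in iTreg in vehicle. Its fitted change (5.91, adjusted p = 0.0044) rests on 3 counts in Th17n under DFMO and was not called without animal 2 (7.10) or animal 3 (3.81). Adm, the peptide hormone adrenomedullin, was gained, at 31.9, 25.2 and 43.1 CPM in iTreg and 1.38, 0.706 and 0.997 CPM in Th17n under DFMO and 10.01, 13.2 and 7.16 and 9.77, 8.42 and 6.92 CPM in vehicle. The groups overlapped in vehicle and lay far apart under DFMO (5.04 ± 0.37, adjusted p = 1.5e-09), and the change of Adm (4.75 ± 0.47, adjusted p = 2.3e-06) was called in all 13 alternatives. Nkg7, a cytotoxic granule protein, was higher in iTreg by 6.38 ± 0.44 (adjusted p = 3.3e-08), and Xcl1, a chemokine, stood at 57.8, 68.2 and 11.8 against 0.231, 0 and 0.634 CPM (7.25 ± 0.95, adjusted p = 0.00014). Mndal stood at 50.2, 41.6 and 23.3 against 0.576, 0 and 0 CPM and its neighbour Ifi203 at 56.4, 36.6 and 22.1 against 0.576, 0.53 and 1.36 CPM; these interferon-inducible genes, like Dnah7a (5.83 ± 0.43), have near-identical copies, and their counts are uncertain.

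On the lower side, Tgm2, a transglutaminase, stood at 0.373, 0.581 and 0.437 CPM in iTreg and 202, 248 and 205 CPM in Th17n under DFMO and 14.4, 32.3 and 52.4 and 1157, 959.6 and 893 CPM in vehicle. The difference was -8.81 ± 0.54 (adjusted p = 8.2e-08) against -4.91 ± 0.35, and the change of -3.90 ± 0.73 (adjusted p = 0.0047) was not called without animal 2 (-4.0) or animal 3 (-3.30). Lbp, which binds bacterial lipopolysaccharide, stood at 0, 1.08 and 0.0873 against 125, 141 and 81.5 CPM (-8.01 ± 0.55, adjusted p = 5.7e-08). Cysltr1, a leukotriene receptor, differed by -5.43 ± 0.25 (adjusted p = 5.1e-12), and Itga3, the alpha 3 integrin chain, by -4.80 ± 0.27 under DFMO and -4.73 ± 0.23 in vehicle. Anxa2, a membrane-binding annexin, stood at 13.1, 10.5 and 36.2 against 320, 310 and 516 CPM (-4.25 ± 0.39, adjusted p = 3.6e-06). Srgn, the proteoglycan core of secretory granules, stood at 49, 55.7 and 36.3 against 638, 530.1 and 778 CPM (-3.79 ± 0.18, adjusted p = 6.5e-10).

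The genes with the largest lost differences included Cyr61, a matricellular target of the Hippo pathway, and Bend4, a gene of the BEN domain family. Cyr61 was higher in iTreg in vehicle (3.20 ± 0.60) and stood at 3.23, 5.06 and 2.71 CPM in iTreg and 3.46, 3.71 and 13.6 CPM in Th17n under DFMO (-0.92 ± 0.48; change -4.11 ± 0.78, adjusted p = 0.0018). Animal 3 held the highest Th17n level of Cyr61, and without animal 3 the change was -2.62. Bend4 was lower in iTreg in vehicle (-2.09 ± 0.21) and stood at 39.4, 33.8 and 33.4 against 21, 22 and 34.9 CPM under DFMO (0.45 ± 0.19; change 2.53 ± 0.28, adjusted p = 1.4e-05). Animal 3 held the highest Th17n level of Bend4, and without it the DFMO difference was 0.76 and called, opposite in direction to vehicle. C3, the complement component, went from -3.10 ± 0.54 to -0.23 ± 0.48, and its change (2.88 ± 0.71) was not called without animal 1 (3.70) or animal 2 (2.63).

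The cells carried T cell transcripts at high levels and those of other cell types at low levels. The 12 CD4 T cell markers summed to 3780 to 4350 CPM in iTreg and 4660 to 4760 CPM in Th17n under DFMO, and 4 were higher and 5 lower in iTreg. Cd4 stood at 367, 417 and 387 CPM in iTreg and 243, 254 and 289 CPM in Th17n (0.58 ± 0.075, adjusted p = 5.0e-06; in vehicle 0.01 ± 0.074), and the receptor chain Cd3e at 247, 254 and 202 against 174, 157 and 159 CPM (0.52 ± 0.089, adjusted p = 0.00014). Cd5, a brake on receptor signalling, was lower at 316, 387 and 333 against 716, 683 and 709 CPM (-1.02 ± 0.078, adjusted p = 2.7e-09). B cell markers summed to 16.4 to 27.1 CPM in iTreg and 5.42 to 10.1 CPM in Th17n, most of it Cd79b in iTreg (22.7, 14.3 and 14.2 CPM), while Blk was at 0 in all 6 libraries. Ebf1, of the same list, went the other way, at 0.248, 0.664 and 0.611 CPM in iTreg and 3.23, 3.88 and 4.98 CPM in Th17n (-2.90 ± 0.45, adjusted p = 4.4e-05). CD8 T cell markers summed to 21.9 to 23.7 CPM in iTreg and 9.88 to 14.9 CPM in Th17n, with 2 of 4 tested higher in iTreg, Cd8a (2.60 ± 0.69; 2.26, not called, without animal 1) and Eomes (4.09 ± 0.93). NK and innate lymphoid markers summed to 8.7 to 9.08 CPM in iTreg, which was mostly Kit, and 1.27 to 1.77 CPM in Th17n, with Ncr1, Klrb1c and Tyrobp at 0. Klre1 went the other way from Kit, at 0 in every iTreg library and 0.576, 0.53 and 0.362 CPM in Th17n. Myeloid markers summed to 101 to 115 CPM in iTreg and 114 to 125 CPM in Th17n, nearly all of it Cst3 and Cd74, with Lyz2, Itgax, Flt3, S100a8 and S100a9 at 0 in all 6 libraries. The part of these markers in the other results was not tested.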

How the data were processed

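The authors deposited expected counts per gene and, in a separate table, TPM values, made with Bowtie2 and RSEM on GRCm38.p3 per the submitters' processing notes; no versions are given. Each of the 18 libraries was sequenced in 2 runs, which differed little beyond counting noise (chi-square per degree of freedom 1.147 to 1.542 over genes with at least 20 summed counts), were summed as 1 replicate and rounded, since 12.2% of the expected counts were not whole. Of 20817 symbols, 20078 matched GENCODE M21. Counting strand is not stated, so overlapping genes can share reads.

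Tests used edgeR 4.0.16 (quasi-likelihood, robust, TMM, filterByExpr, group means of all 18 libraries, two-sided) in R 4.3.3, with Benjamini-Hochberg adjustment over 11526 genes. The pseudocount on TPM was 1 or 0.1 in limma 3.58.1, and DESeq2 1.42.0 was another alternative. SEs are the absolute log2 difference divided by the root of F. They are not printed for values that rest on 3 or fewer counts in a group, where ratios of counts carry exact 95% intervals or a floor of 3 counts over the group, both for counting error only. The script was tested on simulated counts.

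Animal numbers in the labels pair the libraries. Same-animal libraries deviated together (median correlation 0.121 in 45 pairs, and -0.064 in the 90 pairs that cross animals), and the animal entered as a block in an alternative fit. Deviations were taken from group means and sum to 0 in each group. The cross-animal value is therefore tied to the same-animal value and is no separate comparison.

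Members, the 34 gene lists and tests were chosen with earlier results of these data known. Named genes were the 15 largest differences in each direction under DFMO (mean log2 CPM at least 2, same sign in 3 animals), a set of lineage, cytokine and polyamine genes, up to 4 per list by p, and up to 8 per class. A few others (Tox, Mcl1, Pim1, Tnfaip3, Acadm, Psat1, Psph, Shmt2, Atf4, Asns and the markers named as being at 0) were chosen after their values were seen. Of 672 list entries, 665 were found and 611 tested; counts of called members cover those tested, and a gene can stand in several lists. Promoter sequences are from RefSeq (GRCm38.p6). Some items are not reported here.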

Additional observations from a re-analysis of the deposited data

Results flagged for a closer look

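The difference between iTreg and Th17n itself differed between DFMO and vehicle, by the test of that change, for 1396 genes. The following 8 are those of the turned class with the largest change, which were called in opposite directions in the 2 conditions. Chst2, a sulfotransferase that builds selectin ligands, stood at 11.9, 11.5 and 9.43 CPM in iTreg and 35.8, 35.9 and 43.9 CPM in Th17n under DFMO and went from 1.16 in vehicle to -1.82, a change of -2.98 ± 0.33, but in run 1 alone its vehicle difference was 0.71 and not called. Tnfrsf9 changed by 2.74. Anxa3, an annexin, stood at 46.3, 55.3 and 45.6 against 25.5, 28.3 and 15.2 CPM and changed by 2.47 ± 0.41, and its DFMO difference was 0.92 and not called without animal 3. Antxr2, an anthrax toxin receptor, stood at 8.95, 16.2 and 10.3 against 22.9, 30.6 and 22.3 CPM and changed by -2.31 ± 0.39, and its DFMO difference was -0.99 and not called without animal 1. Ehd3, a regulator of endosomal recycling, stood at 10.2, 12.4 and 10.3 against 20.1, 25.3 and 24.9 CPM and changed by -2.29 ± 0.30. Zbp1 changed by -2.10 ± 0.26. Spsb1, a substrate adaptor of a ubiquitin ligase, stood at 147, 129 and 57.1 against 56.6, 45.7 and 41.8 CPM and changed by 2.08 ± 0.36, and without animal 2 its difference (1.07 under DFMO, -0.68 in vehicle) and its change (1.75) were not called. Fam65b, a RhoA inhibitor, stood at 28.2, 22.3 and 24.6 against 16.6, 13.6 and 17.7 CPM and changed by 1.86 ± 0.22, and its DFMO difference was 0.59 and not called without animal 1. No group of 4 or more libraries was available to look for single outlying libraries within a group.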

How the results depend on the processing

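Leaving out animal 1, 2 or 3 gave 1590 to 2128 genes called under DFMO (711 to 968 higher in iTreg, 879 to 1160 lower), 2784 to 3493 in vehicle (1330 to 1689 and 1373 to 1804), and 277 to 1177 called changes (143 to 660 positive, 134 to 517 negative). The share of vehicle calls called the same way under DFMO was 34.3% to 40.0% in these fits. With the animal as a block, to honour the pairing, 3186 genes were called under DFMO, 4575 in vehicle and 1848 for the change. Among the single-gene values printed in the report, the block changed the call of the Il17f, Il9 and Gata3 changes and of the Ikzf3 vehicle difference, and of no other named gene's value. Outside this count stand the changes of Cd274, Cd28 and Tyms and the vehicle differences and changes of Satb1, Il4ra, Cxcr3, Psme1 and Ccl22. On log2(TPM + 1) in limma, 818 genes were higher under DFMO, 3200 higher and 1380 lower in vehicle, and 2563 changes were called (402 positive, 2161 negative). On log2(TPM + 0.1) these were 830, then 3194 and 1350, then 2463 (323 and 2140). Without scaling factors, 3184 were higher in vehicle, and 450 changes were positive and 1509 negative. TPM is not scaled between libraries here, and the pseudocount shrinks differences of low genes. Of 205 named genes, 181 were called under DFMO, of which 152 in every alternative that gave a value. In vehicle it was 124 of 153, and for the change 25 of 87. No difference of a named gene reversed in either condition. The change of Dnah7a reversed to 1.10 and 1.49 and that of Oaz1 to -0.02 and -0.02 on the 2 TPM scales, and the cause was not tested. The depth of 8307633 or more counts per library leaves genes of a few counts, such as Il23r or Tgfb3 in iTreg, with ratios known only within wide intervals.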
